A study of Mus musculus with 2 samples.

Results

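The genes described here make, bind and break down retinoic acid, the active form of vitamin A. There were 9 such genes chosen by name: Crabp1, Crabp2, Aldh1a1, Aldh1a2, Aldh1a3, Adh6a, Adh7, Dhrs9 and Cyp26b1. Of these, 8 were represented, by 11 probe sets among the 45101 on the array, and the whole table held 18194 named genes. Dhrs9 was not analysed here. The platform annotation listed Adh6a under that symbol, and 6 of the genes had 1 probe set each, Adh7 2 and Aldh1a3 3.

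The values came from 2 structures of the mouse hair follicle, cut by laser from frozen, eosin-stained skin of C57Bl6 mice aged 21 days, with 1 expression array for each structure. One group was the bulge, the region of the outer root sheath that holds follicle stem cells, and the other the hairshaft. No genetic change, treatment, sex or body site is named for either group, and whether several animals were pooled is not given in the sources used here. From each sample, 30 ng of total RNA was amplified and labelled with biotin.

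Retinol, taken up from the blood or released from stored esters, is oxidised to retinal by alcohol dehydrogenases and short-chain dehydrogenases, and retinal is oxidised to retinoic acid by the retinaldehyde dehydrogenases Aldh1a1, Aldh1a2 and Aldh1a3. Inside the cell retinoic acid is carried by the binding proteins Crabp1 and Crabp2 and acts through the nuclear receptors of the RAR and RXR families, while enzymes of the Cyp26 family remove it. In skin, retinoids are known to influence keratinocyte differentiation, sebaceous glands and the hair cycle.

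All levels are the GCRMA values the authors deposited, which are on a log2 scale judging by their range. GCRMA corrects background from probe sequence and summarises the probes of a set, and the values ran from 2.23 to 15.36. Differences are bulge minus hairshaft on that scale. A background floor came from 80 receptor probe sets of the nose (olfactory and vomeronasal genes): their 95th percentile was 2.68 on both arrays, and a gene counted as measured above background where at least 1 array exceeded it. With 1 array per structure there was no replicate spread, so no test was possible, no difference could be set against an error, and a limit of 2-fold only sorts the genes by size. In tissue pieces such as these, fewer cells of a type and less RNA per cell cannot be told apart.

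The defining genes of a differentiating hair were low on the array labelled hairshaft. Of 13 hair shaft and matrix markers, 10 exceeded 2-fold in favour of the bulge array, none in favour of the hairshaft array, and 7 were at or below the floor on the hairshaft array, among them Krt31, Krt33a and Krt86 (summed log2 levels of 9.94 and 6.52). Of 10 bulge stem cell markers, 8 were past 2-fold on the bulge array, 1 (Itga6) was past it on the hairshaft array and Krt15 was 1.24-fold apart, with summed log2 levels of 14.46 and 14.22. Over all genes above the floor, 11.4% passed 2-fold toward the bulge and 4.91% toward the hairshaft. Skeletal muscle, adipocyte and sebaceous gland markers were also much higher on the bulge array, and their values are given below beside the retinoid genes with the same sign of difference. The names bulge and hairshaft are used for the libraries so labelled.

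The retinoid genes did not differ in one direction. The retinaldehyde dehydrogenase Aldh1a1 was 5.02-fold higher in the bulge and the alcohol dehydrogenase Adh6a 11.0-fold higher in the hairshaft. The retinoic acid hydroxylase Cyp26b1 was 2.01-fold higher in the bulge, and Aldh1a3 was at least 3.43-fold higher there with its brightest probe set. The carriers Crabp1 and Crabp2 were less than 2-fold apart, Adh7 was so with its brightest probe set, and Aldh1a2 was below the floor on both arrays.

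Of the 7 genes above the floor, 3 passed 2-fold toward the bulge, as did 11.4% of the 13329 genes above the floor in the whole table, and 1 passed it toward the hairshaft, as did 4.91%. In either direction the share was 57.1% (4 of 7) beside 16.4% of all genes. Aldh1a3 passed the floor only through the array on which it was high, which set the sign of its difference but not its size. Among the 6 genes above the floor on both arrays 3 were at least 2-fold apart, beside 15.2% of the 12768 genes above it on both. The median difference of the 7 genes was 0.45, and that of all genes was 0.0. These counts rest on few genes chosen with earlier results of these arrays known, and they describe the 2 arrays only. Of the genes past the limit, Cyp26b1 was nearest to it, at a difference of 1.004. Of those under it, Crabp2 was nearest, at -0.61, well short of it.

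**Figure D1:**
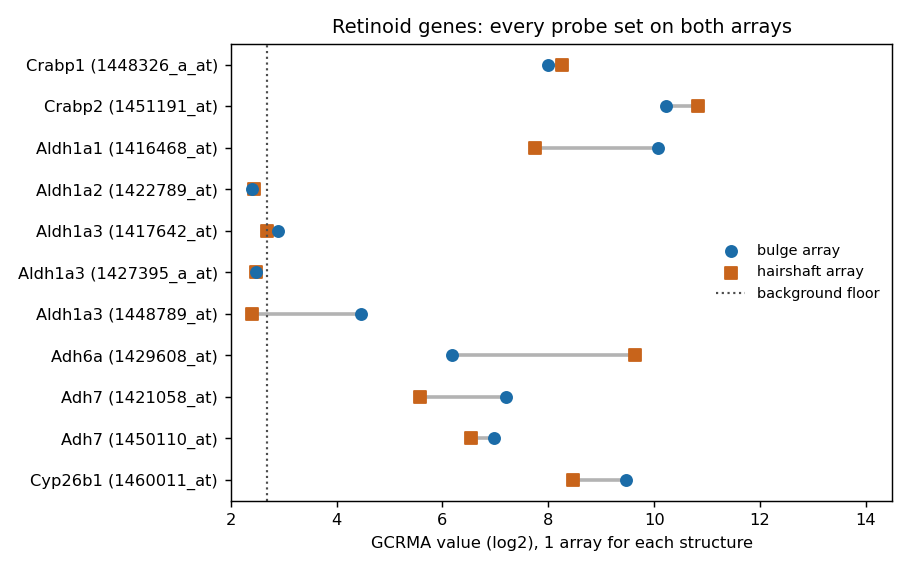
GCRMA values (log2, horizontal axis) of all 11 probe sets of the retinoid genes; circles are the bulge array, squares the hairshaft array, the dotted line is the floor of 2.68, and there are no error bars because each structure has 1 array. Adh6a is the probe set with the widest gap and lies to the right on the hairshaft array (9.64 against 6.18), Aldh1a1 to the right on the bulge array (10.07 against 7.74), and both Crabp genes show short lines.

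Among the genes of retinol oxidation, Adh6a, a member of the alcohol dehydrogenase family, read 6.18 on the bulge array against 9.64 on the hairshaft array (probe set 1429608_at). Both values were above the floor, and the hairshaft was higher by 3.45 on the log2 scale (a difference of -3.45 as bulge minus hairshaft). Among the 12768 genes above the floor on both arrays, this was number 8 in order of the difference toward the hairshaft. Adh6a was 1 of 25 genes (0.188% of the 13329) at least 8-fold higher in the hairshaft. Across the 7 alternatives its difference lay between -3.52 and -3.19. Those that changed only the floor or the choice of probe set could not move it. Adh7, an alcohol dehydrogenase of epithelia with high activity on retinol, gave a smaller difference of the opposite sign. Its brighter probe set, 1450110_at, had 6.98 on the bulge array against 6.53 on the hairshaft array, and the other, 1421058_at, had 7.20 and 5.57. Both probe sets were higher in the bulge, by 1.36-fold and 3.09-fold, so they had the same sign but lay on either side of the 2-fold limit. With the mean of both the difference was 1.04.

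Adh7 and Adh6a belong to one cluster of alcohol dehydrogenase genes on chromosome 3, in the order Adh7, Adh1, Adh6a, Adh6b, Adh6-ps1, Adh4 and Adh5 (RefSeq order in GRCm38.p6, with genes that are not alcohol dehydrogenases between some of them). Adh6a and its neighbour Adh6b were both higher in the hairshaft. Adh6b had 3.87 on the bulge array against 6.20 on the hairshaft array, a 5.02-fold difference. Adh1, which also oxidises retinol, was 9.20 and 9.08, and Adh5, an enzyme best known for removing formaldehyde, was 9.70 and 9.43. These 2 were close on both arrays, at 1.09-fold and 1.21-fold. Adh4, with a value of 2.31 on each array, and the pseudogene Adh6-ps1, with 2.23, were below the floor. Adh6b and Adh6-ps1 were looked up after the value of Adh6a was seen, and as relatives of Adh6a their probe sets may share signal with it.

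**Figure D2:**
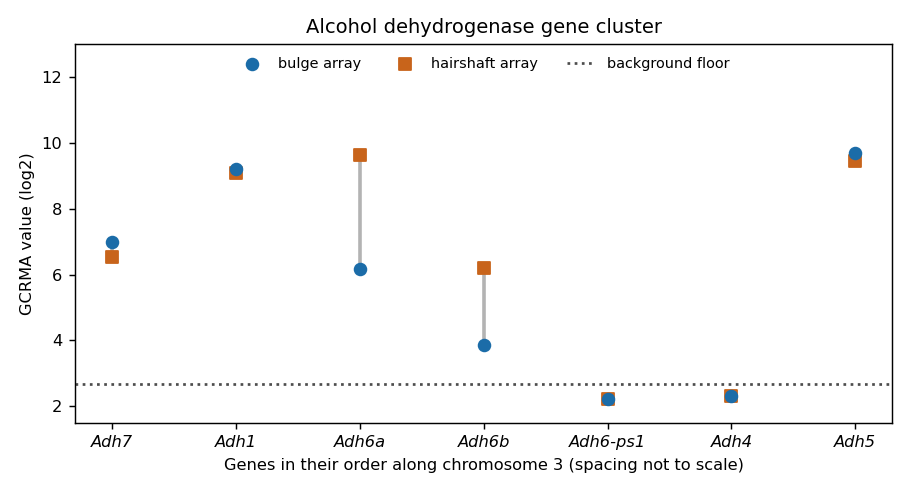
GCRMA values (log2, vertical axis) of the 7 measured alcohol dehydrogenase genes in their order along chromosome 3, with circles for the bulge array, squares for the hairshaft array and a dotted line for the floor; each point is 1 array. The wide gaps, both with the hairshaft on top, are at the neighbours Adh6a (6.18 and 9.64) and Adh6b (3.87 and 6.20), and Adh1 and Adh5 nearly coincide.

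The sequence before the Adh6a start site is shown because this gene had the largest difference of the set. It covers the 250 bases before the start in RefSeq's GRCm38.p6, at chr3:138313036-138313285 on the plus strand, written 5′ to 3′. Capitals mark matches to TATAAA (searched on the strand of the gene), to CCAAT and to 4 forms of the half-site that retinoic acid receptors bind, which are AGGTCA itself, the form GGGTCA, the form AGTTCA and the form GGTTCA (both strands).
Adh6a: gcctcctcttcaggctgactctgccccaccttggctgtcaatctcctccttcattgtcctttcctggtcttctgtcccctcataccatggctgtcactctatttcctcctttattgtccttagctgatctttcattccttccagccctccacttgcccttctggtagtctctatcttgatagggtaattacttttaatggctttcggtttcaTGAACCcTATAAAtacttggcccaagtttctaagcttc
The window holds GGTTCA on the minus strand (printed as its reverse complement), at -38 to -33 from the start site, and TATAAA at -31 to -26, with no overlap between them. Of all 32851 RefSeq promoter windows of this length, 7.59% hold TATAAA on the gene's strand, 8.85% hold GGTTCA, and 38.6% hold at least 1 of the 4 half-sites. Receptors bind pairs of half-sites, and such a single match is a description of the letters only.

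In retinoic acid synthesis, Aldh1a1, which oxidises retinal to retinoic acid and also other aldehydes, had 10.07 on the bulge array against 7.74 on the hairshaft array (probe set 1416468_at). The bulge was higher by 2.33 on the log2 scale, and both values were well above the floor. It was number 449 of the same 12768 genes in order of the difference toward the bulge. Among the 7 alternative ways of processing, the difference lay between 2.25 and 2.43. Those that changed only the floor or the choice of probe set could not move it. Its near relative Aldh1a7, looked up after the values were seen, had 8.73 on the bulge array against 7.07 on the hairshaft array, 3.16-fold higher in the bulge. The sequences of these genes are alike, so their probe sets may share signal.

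The other retinaldehyde dehydrogenases were dim. Aldh1a3, an enzyme of epithelia with high activity on retinal, had 3 probe sets that did not give 1 picture. Probe set 1448789_at had 4.45 on the bulge array against 2.41, below the floor, on the hairshaft array, so that its difference of at least 1.78 is a lower bound. Probe set 1417642_at had 2.89 and 2.69, both barely above the floor, and 1427395_a_at had 2.48 on both arrays, below it. The first thus passed 2-fold and the other 2 did not, and the mean of all 3 gave 0.60. With a stricter floor (4.21, the 99th percentile of those receptors) it was 0.24. Aldh1a2, the main source of retinoic acid in the early embryo, had 2.40 on the bulge array against 2.44 on the hairshaft array (probe set 1422789_at). Both were below the floor, so no fold is given. Of the 3 retinaldehyde dehydrogenases, Aldh1a1 was the one with both arrays clearly above background.

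RefSeq's GRCm38.p6 promoter table gives 2 start sites for Aldh1a1, and both windows are shown because this gene had the largest measured difference toward the bulge. Each is the 250 bases before a start on the plus strand, written 5′ to 3′ with the same capitals. The upstream window is chr19:20492333-20492582 and the downstream one chr19:20601718-20601967.
Aldh1a1 upstream start: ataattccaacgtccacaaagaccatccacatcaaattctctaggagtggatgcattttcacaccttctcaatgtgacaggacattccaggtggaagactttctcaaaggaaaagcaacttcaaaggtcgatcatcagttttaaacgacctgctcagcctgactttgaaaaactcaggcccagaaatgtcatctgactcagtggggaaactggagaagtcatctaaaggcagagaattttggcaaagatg
Aldh1a1 downstream start: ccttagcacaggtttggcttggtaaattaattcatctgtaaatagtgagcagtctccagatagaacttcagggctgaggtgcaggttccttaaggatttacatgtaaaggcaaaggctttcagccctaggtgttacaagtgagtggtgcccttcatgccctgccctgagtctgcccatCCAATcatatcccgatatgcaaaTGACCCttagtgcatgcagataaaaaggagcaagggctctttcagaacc
The upstream window has no match to any of these motifs. The downstream window holds CCAAT at -72 to -68 and GGGTCA on the minus strand at -49 to -44. CCAAT is in 33.8% of all windows and GGGTCA in 11.6%. The arrays do not tell which start site was used.

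Of the carriers of retinoic acid, Crabp2, which passes retinoic acid to its nuclear receptors, had 10.22 on the bulge array against 10.83 on the hairshaft array (probe set 1451191_at). The hairshaft was higher by 1.52-fold. Crabp1, which holds retinoic acid in the cytoplasm and is known from hair follicles and their dermal papilla, read 7.999 on the bulge array against 8.26 on the hairshaft array (probe set 1448326_a_at), a 1.197-fold difference. Both carriers were far above the floor on both arrays, both were slightly higher in the hairshaft, and neither reached 2-fold under any alternative that could be run. Alternatives that changed only the floor or the choice of probe set could not move them. Of the 12768 genes above the floor on both arrays, 13.3% were at least as far toward the hairshaft as Crabp2 and 29.2% as far as Crabp1.

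In retinoic acid breakdown, Cyp26b1, which hydroxylates retinoic acid to inactive products, had 9.47 on the bulge array against 8.46 on the hairshaft array (probe set 1460011_at). The bulge was 2.01-fold higher, at the edge of the limit, and with the offset of 16 or quantile normalization the difference fell just short of it (0.97 and 0.98). Of the genes above the floor on both arrays, 10.2% were at least as far toward the bulge. Its relative Cyp26a1, a classical gene induced by retinoic acid, was at 2.23 on both arrays, the lowest value in the table. The window before the Cyp26b1 start, at chr6:84593811-84594060 on the minus strand of GRCm38.p6 (RefSeq), is shown because Cyp26b1 is the one gene of the set that removes retinoic acid, written on the strand of the gene.
Cyp26b1: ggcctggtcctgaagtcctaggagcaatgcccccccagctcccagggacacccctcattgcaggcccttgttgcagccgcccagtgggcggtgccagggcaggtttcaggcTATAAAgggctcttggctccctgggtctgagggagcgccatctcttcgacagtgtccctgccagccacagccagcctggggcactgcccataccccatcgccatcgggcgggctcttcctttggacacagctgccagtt
It holds TATAAA at -139 to -134 from the start and none of the other motifs searched. In all, 7 of the 9 genes had an entry among these windows. GC content was 64.8% for Cyp26b1, 46.4% for Adh6a and 42.8% and 46.4% for the upstream and downstream windows of Aldh1a1, beside a median of 52.4% over all windows.

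**Figure D3:**
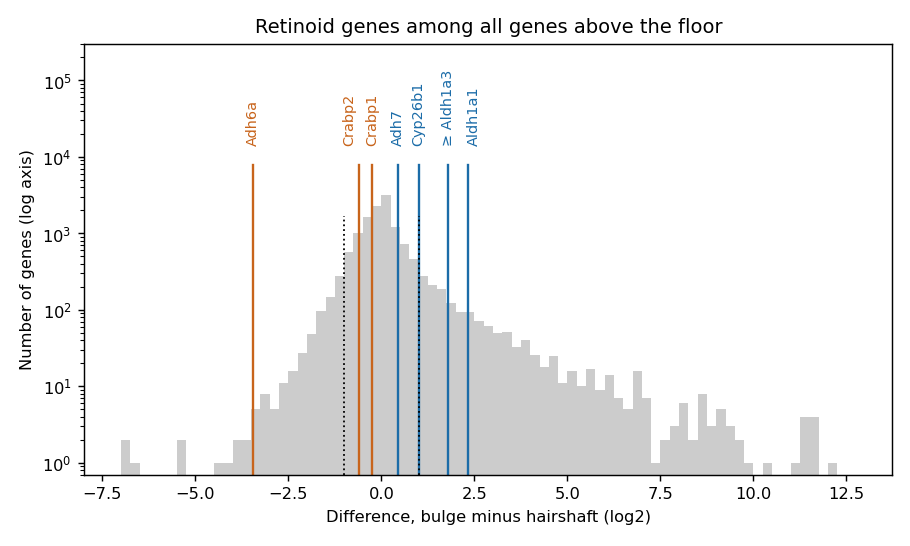
Histogram of the difference, bulge minus hairshaft (log2, horizontal axis), over all 13329 genes above the floor, with the number of genes on a log axis; coloured lines mark the 7 retinoid genes above the floor and dotted lines the 2-fold limits. Adh6a, at -3.45, stands in the sparse left tail, Aldh1a1, at 2.33, in the longer right tail, and both Crabp genes lie in the central mass.

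Other genes of the pathway were taken from a list of 60 genes in 5 classes, of which 51 were measured and 41 were above the floor. Of these 41, 10 passed 2-fold toward the bulge, 3 toward the hairshaft and 28 neither way, a share of 31.7% beyond the limit beside 16.4% of all genes. In 4 of the 41, only 1 array passed the floor, which set the sign of the difference but not its size. They were Rbp4 and Cyp1b1, past 2-fold, and Stra6 and Bco2, under it. Of the 37 genes above the floor on both arrays, 8 passed 2-fold toward the bulge and 3 toward the hairshaft, 29.7% beside 15.2%. The median difference of the 41 was 0.02. The genes past the limit were unevenly spread over the classes, with 6 of 9 in uptake and storage and 1 of 10 among the receptors and coregulators.

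In uptake, storage and release, Rbp4, the carrier of retinol in blood, had 8.07 on the bulge array against 2.43 on the hairshaft array, a fold of at least 41.9 toward the bulge. Rbp7, a cellular retinol-binding protein of fat and vessels, had 5.52 and 2.75. Dgat1, which esterifies retinol and diacylglycerol, was 4.54-fold and Lipe, a lipase that releases fatty acids and retinol from esters, 2.98-fold higher in the bulge. The opposite sign was seen for Bco1, which cleaves beta-carotene to retinal, with 4.07 on the bulge array against 6.39 on the hairshaft array, and for Rbp2, another cellular retinol-binding protein, with 5.40 and 6.87. Lrat, the main retinol-esterifying enzyme in many tissues, was 3.27 and 3.26, and Stra6, a receptor for Rbp4 (2.69 and 2.58), and Bco2, another carotenoid-cleaving enzyme (2.64 and 2.68), were around the floor. The larger folds depend on the dim side: with the offset of 16 the difference of Rbp4 was 3.66 in place of 5.39, that of Rbp7 1.44 in place of 2.76 and that of Bco1 -1.61 in place of -2.32. With the mean of probe sets, Dgat1 had 1.09 in place of 2.18 and Lipe, at 0.79, was under 2-fold. In both genes the second probe set was below the floor and equal on both arrays (2.55 for Dgat1, 2.25 for Lipe), which lowers this mean.

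Among the other enzymes that interconvert retinol and retinal, 12 of 14 were under 2-fold apart and 4 more were below the floor. Over all genes above the floor, 16.4% were past 2-fold, so most genes of any kind were under it. The exceptions were both higher in the bulge. Rdh11, a retinal reductase, had 10.01 and 8.29, and its second probe set gave 9.27 and 7.54, nearly the same difference (1.72 and 1.73). Sdr16c6 had 12.22 and 10.86, whereas its relative Sdr16c5 had 9.93 and 10.67. Rdh10, the main retinol dehydrogenase of the embryo, was 7.72 and 7.22, and Dhrs3, which reduces retinal back to retinol, 8.52 and 8.47. Rdh9 was 11.05 and 11.25 with a probe set whose name marks it as shared by similar transcripts.

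Of the 10 receptors, carriers to receptors and coregulators above the floor, 9 were under 2-fold apart. The share past 2-fold over all genes above the floor was 16.4%, so most genes of any kind were under it. Rarg, the main retinoic acid receptor of epidermis, had 9.22 on the bulge array against 9.38 on the hairshaft array, and Rxra, its usual partner, 9.39 and 9.28. Rara had 3.19 and 4.51, 2.51-fold higher in the hairshaft, but only 0.30 apart on the log2 scale with the 99th percentile floor (a difference of -0.30). Rarb, a receptor gene induced by retinoic acid, was below the floor on both arrays (2.25). Fabp5, a fatty acid carrier that also binds retinoic acid, was 14.26 and 13.65, at the bright end, where array signals can saturate, and the coactivator Ncoa2 was 9.51 and 9.87.

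Of 10 measured genes known as targets of retinoic acid in other tissues, 3 passed 2-fold toward the bulge, none toward the hairshaft, 3 lay under 2-fold and 4 (Stra8, Cdx1, Hoxb1 and Ucp1) were below the floor. Of the 6 target genes above the floor, 3 thus passed 2-fold toward the bulge. The shares over all genes above the floor were 11.4% toward the bulge and 4.91% toward the hairshaft. Tgm2, tissue transglutaminase, had 10.19 on the bulge array against 4.68 on the hairshaft array, and 5 of its 6 probe sets were above the floor, with differences from 3.66 to 5.87. Pdk4, a kinase that limits glucose oxidation and is abundant in muscle, had 9.88 and 2.97. Rarres2, which encodes chemerin and is made by fat cells, had 9.57 and 7.84, and Rarres1 10.52 and 9.53, which is 1.99-fold. Meis1 was 6.92 and 6.57. Of the genes listed under breakdown, Cyp1b1 had 7.79 and 2.59, a fold of at least 34.7 toward the bulge, and Cyp2s1 had 5.83 and 6.41. Cyp1b1 is a cytochrome that can oxidise retinol, a step toward retinoic acid, so its place in that class is loose. The offset of 16 gave 5.33 for Pdk4 in place of 6.91, 4.83 for Tgm2 in place of 5.51 and 3.41 for Cyp1b1 in place of 5.12, and the mean of probe sets gave 4.07 for Tgm2 and 2.84 for Cyp1b1. Tgm2 and Cyp1b1 each have a probe set below the floor on both arrays, which lowers this mean.

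**Figure D4:**
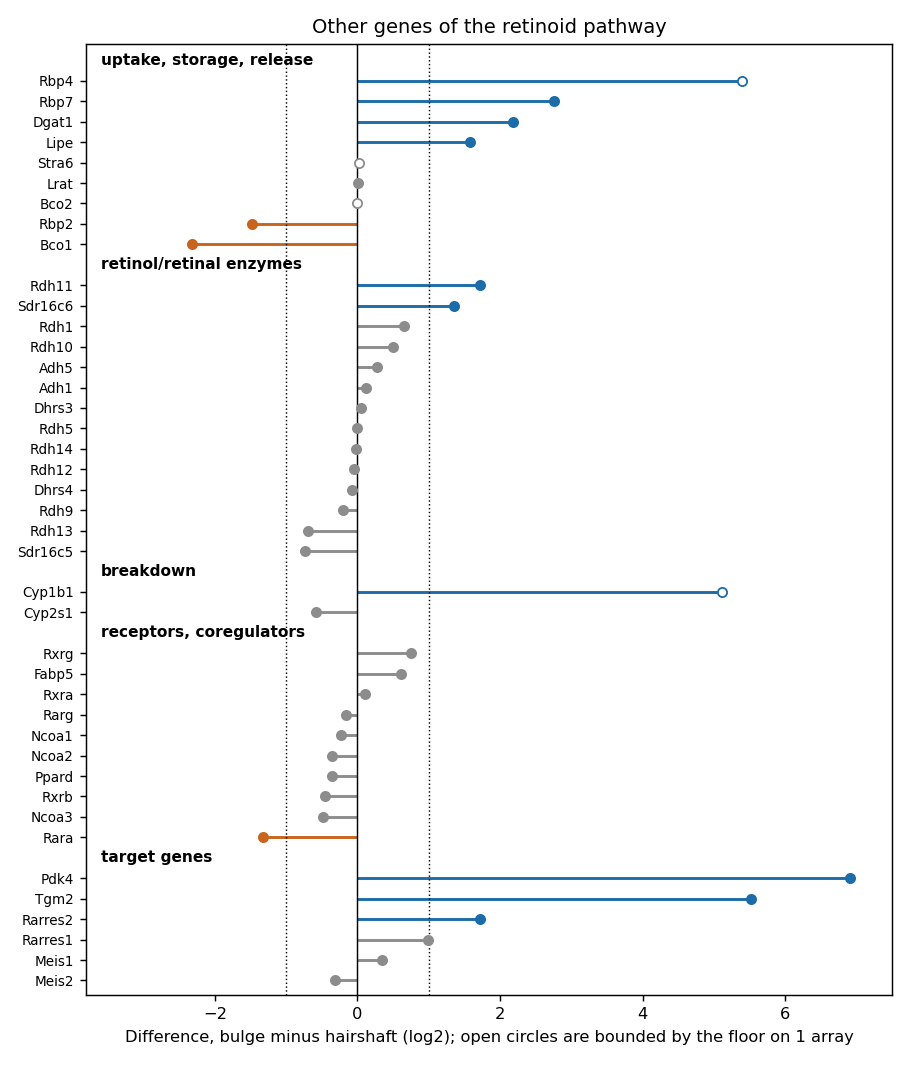
Difference, bulge minus hairshaft (log2, horizontal axis), of the 41 other retinoid pathway genes above the floor, by class; blue is at least 2-fold higher on the bulge array, orange at least 2-fold higher on the hairshaft array, grey under 2-fold, and open circles have the floor in place of the dimmer value. Long bars toward the bulge belong to Rbp4, Cyp1b1, Tgm2 and Pdk4 (5.12 to 6.91), while the receptor class lies between -1.33 (Rara) and 0.75 (Rxrg).

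Marker genes of several other cell types also differed between the arrays, while other marker lists were mixed or mostly under 2-fold apart. The retinoid and pathway genes past 2-fold toward the bulge were Aldh1a1, Aldh1a3, Cyp26b1, Rbp4, Rbp7, Dgat1, Lipe, Rdh11, Sdr16c6, Cyp1b1, Rarres2, Tgm2 and Pdk4. All 13 skeletal muscle markers passed 2-fold in that direction, and the log2 of their summed values was 17.71 on the bulge array against 6.79 on the hairshaft array. Beside this and the counts that follow, 11.4% of all genes above the floor passed 2-fold toward the bulge and 4.91% toward the hairshaft. All 9 measured adipocyte markers were higher (15.80 and 7.71), with 5 of them, Adipoq among them, at or below the floor in the hairshaft. Of the sebaceous gland markers above the floor, 9 of 9 were higher (15.68 and 12.76), and Mc5r was below the floor on both arrays. Of 11 endothelial markers 10 were higher (10.68 and 7.68), with Pecam1, Cdh5 and Kdr at or below the floor in the hairshaft, and of 9 smooth muscle and pericyte markers 8 (13.07 and 10.81). Of 6 melanocyte markers above the floor 5 were higher (9.35 and 7.03), with Tyr and Mlana below the floor on both arrays, and of 9 inner root sheath markers 6, Krt25 and Tchh among them, and none toward the hairshaft (12.39 and 12.20). Lipe is itself in the adipocyte list, and Pparg is in both the adipocyte and the sebaceous gland list, so these lists are not separate. The part of these cells in the retinoid differences was not tested.

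The retinoid and pathway genes past 2-fold toward the hairshaft were Adh6a, Bco1, Rbp2 and Rara. In that direction 4 of 10 suprabasal epidermis markers passed 2-fold (Ivl, Casp14, Cdsn and Klk8), and none did so toward the bulge. The summed log2 levels of that list were 17.09 on the bulge array against 17.31 on the hairshaft array. Of 10 dermal fibroblast markers, 4 were higher in the hairshaft (Col1a1, Col1a2, Col3a1 and Eln) and 2 in the bulge (15.14 and 16.35). Of 9 markers of antigen-presenting and T cells, 2 were higher in the hairshaft, H2-Eb1 and Cd3e (14.22 and 14.60). None of these lists had a member at or below the floor on either array. Their part in the Adh6a difference was not tested. Of 8 basal keratinocyte markers, 7 were under 2-fold apart and 1 (Lama5) was higher in the bulge (15.78 and 15.87). Over all genes above the floor, 11.4% passed 2-fold toward the bulge and 4.91% toward the hairshaft, so most genes of any kind were under it. For Crabp1, dermal papilla markers had 4 of 10 members above the floor past 2-fold toward the bulge and 1 toward the hairshaft (9.17 and 8.74), with Alx4, Corin, Fgf10 and Sox2 below the floor on both arrays.

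**Figure D5:**
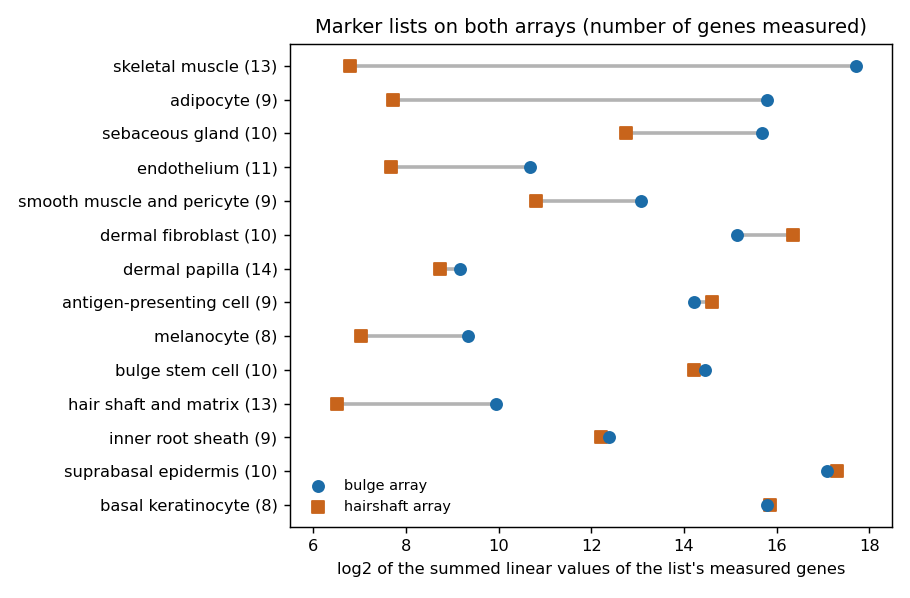
Log2 of the summed linear GCRMA values of each marker list (horizontal axis; number of measured genes in brackets), with circles for the bulge array and squares for the hairshaft array, 1 array each. The muscle list has the widest gap (17.71 and 6.79), the suprabasal epidermis and basal keratinocyte lists nearly coincide, and the dermal fibroblast list lies to the right on the hairshaft array (16.35 against 15.14). A sum rests mostly on the brightest genes of its list and can hide the others. The median difference was -0.85 for suprabasal epidermis and 2.46 for the inner root sheath, whose sums are close.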

How the data were processed

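Total RNA of 2 laser-cut structures was hybridised to 1 array each. The authors summarised the probes of each set with GCRMA, per the submitters' processing notes, which name no version or setting. That the deposited values are log2 is inferred from their range. Sorted columns differed by 0.045 on average, so no scaling was added, and there were 0 unmatched columns. An array has no read depth, and the number of arrays limits the precision.

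Probe sets with 1 symbol (34958; 932 had several and 9211 none here) were named from the platform annotation, updated through RefSeq. Each gene took its probe set with the highest mean. A dimmer value not above the floor was replaced by the floor, and the fold is then written "at least". No test was run (0 residual degrees of freedom). Counting was tested on simulated data in which only genes well above the floor were changed, by more than 2-fold. Recovery of differences bounded by the floor or near the limit was not tested. The members, lists and limits were chosen with earlier results of these data known. Named were all members, other pathway genes at least 2-fold apart and the brightest 2 others per class, and defining markers; further genes, such as Rarg, Rxra, Rarb, Rdh10, Dhrs3 and the Adh cluster, were chosen after their values were seen. The 7 alternatives were a 99th percentile floor, no floor, the mean of probe sets, plain probe sets only, an offset of 16, removal of a loess trend (span 0.3) and quantile normalization. The software was matplotlib 3.10.9, statsmodels 0.14.6, numpy 2.4.6 and pandas 2.3.3 under Python 3.11.15.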

Additional observations from a re-analysis of the deposited data

How the results depend on the processing

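With the offset of 16 added on the linear scale, the number of retinoid genes past 2-fold toward the bulge was 1 in place of 3, because Aldh1a3 (0.76) and Cyp26b1 (0.97) fell under the limit; over all genes the share toward the bulge fell from 11.4% to 8.90% with that offset, and that toward the hairshaft from 4.91% to 3.30%. Under the other 6 alternatives it was 2 or 3, and the number higher in the hairshaft was 1 under all 7. Which genes made up the count changed: with the mean of probe sets Adh7 (1.04) was in it and Aldh1a3 (0.60) was not. Aldh1a1 and Adh6a were past the limit in 7 of 7 alternatives (2.25 to 2.43 and -3.52 to -3.19), Cyp26b1 in 5, Aldh1a3 in 4 and Adh7 in 1. Aldh1a1, Adh6a, Cyp26b1, Crabp1 and Crabp2 each have 1 probe set, above both floors on both arrays. Only the offset, the loess trend and quantile normalization could change them, and Cyp26b1 fell under the limit with the offset and quantile normalization. No member changed sign in its 48 alternative values, of which 4 moved by over 1.5-fold, in Aldh1a3 and Adh7. Crabp1 has no plain probe set and was not run there. Among the other pathway genes, counts were 7 to 11 for the bulge and 2 or 3 for the hairshaft. The 7 came with plain probe sets only, where Dgat1, Rarres2 and Tgm2 had none above the floor. Rara also dropped out there. Of 147 values for 22 of them, 16 moved by over 1.5-fold, in 9 genes, and 4 changed sign, all in Lrat and Bco2, whose differences are near 0. With the 99th percentile floor Rbp4 had 3.85, Rbp7 1.303, Cyp1b1 3.58, Pdk4 5.67 and Rara -0.30, in place of 5.39, 2.76, 5.12, 6.91 and -1.33. Leaving out a replicate was not possible with 1 array per structure. No paired analysis was possible because each structure has 1 array. Signal over background limits the dim genes: Aldh1a2 is below the floor on both arrays, and the folds of Aldh1a3, Rara, Rbp4, Rbp7, Cyp1b1 and Pdk4 depend on where it is set.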

Other observations

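All other genes with an Aldh symbol were looked up after the retinoid values were seen, so their counts are a description of these arrays only. Of 17 measured, 15 were above the floor; 4 were past 2-fold toward the bulge, 1 toward the hairshaft and 10 neither way, beside 11.4% of all genes toward the bulge and 4.91% toward the hairshaft. Their median difference was 0.56. The 4 were Aldh1l1, a folate enzyme (7.15 on the bulge array against 2.72, barely above the floor, on the hairshaft array), Aldh3a1, which clears lipid aldehydes (10.72 and 8.24), Aldh1a7 (8.73 and 7.07) and Aldh6a1, an enzyme of valine breakdown (9.79 and 8.35). Aldh1l2, the mitochondrial relative of Aldh1l1, was the one past 2-fold the other way, with 3.46 and 5.08. Aldh18a1, an enzyme of proline synthesis, was 1.87-fold higher in the hairshaft, and Aldh2 was 1.92-fold higher in the bulge.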
